A study of Homo sapiens with 12 samples.

Results

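A set of 10 genes of SET-2 leukemia cells, PIEZO2, PARD3, GAL, DLK1, PTPRCAP, NPW, RAPGEF5, GJA4, NPR3 and IRX1, is described across the 4 groups of the experiment. These 10 genes, of 63677 in the count tables, were chosen by their measured counts: they were well expressed in untreated wild-type cells and had 0 to 3 reads in total over the 3 untreated libraries of cells with a mutant LSD1. All 10 passed the filter on low counts that left 12864 genes for testing, each of them through its level in WT libraries. SET-2 is an established human acute myeloid leukemia line, and the experiment asked how pharmacological inhibition of LSD1 changes its transcripts when LSD1 is wild type or mutant. The groups were insR cells given GSK-LSD1, insR cells given DMSO, wild-type (WT) cells given GSK-LSD1 and WT cells given DMSO, with 3 libraries each. The insR cells, labelled drug-resistant, carry an arginine inserted between Leu659 and Asn660 of LSD1. GSK-LSD1, an irreversible LSD1 inhibitor, was given at 250 nM for 48 h, and DMSO at 0.1% (v/v) for the same time. The labels do not say whether the insR cells are 1 clone, how the allele arose or whether WT alleles remain. Separate cultures for the replicates are not stated in the labels. The p-values therefore refer to the spread among these libraries alone, and part or all of it may be technical.

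LSD1, the product of KDM1A, removes methyl groups from lysine residues of histone H3 and is brought to DNA in complexes with transcription factors such as GFI1 and GFI1B. In blood progenitors it is known mainly as a repressor of genes that belong to other stages or lineages. The 10 genes have little in common by textbook role. GAL, NPW and DLK1 encode secreted or shed ligands, NPR3, PIEZO2, GJA4 and PTPRCAP encode membrane proteins, PARD3 and RAPGEF5 act inside the cell, and IRX1 encodes a transcription factor.

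They lie on 8 chromosomes: GJA4 on chromosome 1, IRX1 and NPR3 on 5, RAPGEF5 on 7, PARD3 on 10, GAL and PTPRCAP on 11, DLK1 on 14, NPW on 16 and PIEZO2 on 18. Promoter windows of 300 bases, 250 before to 50 after a transcription start, were matched by symbol in RefSeq for 5 of the 10 genes. PIEZO2, which was the most abundant of the 10 in CPM, RAPGEF5 and NPW are printed here 5′ to 3′ on the gene's strand. They are printed because these genes were silent together in insR cells and the windows shown differ widely in base composition. RAPGEF5 had 2 windows, and only the first is printed. Its GC content was 49.3%, and that of the other window, with 8 CG dinucleotides, was 58.7%. Capitals mark CG dinucleotides. In GRCh38.p14 the windows are chr18:11149520-11149819 (minus strand) for PIEZO2, chr7:22194761-22195060 (minus strand) for RAPGEF5 and chr16:2019535-2019834 (plus strand) for NPW.
PIEZO2: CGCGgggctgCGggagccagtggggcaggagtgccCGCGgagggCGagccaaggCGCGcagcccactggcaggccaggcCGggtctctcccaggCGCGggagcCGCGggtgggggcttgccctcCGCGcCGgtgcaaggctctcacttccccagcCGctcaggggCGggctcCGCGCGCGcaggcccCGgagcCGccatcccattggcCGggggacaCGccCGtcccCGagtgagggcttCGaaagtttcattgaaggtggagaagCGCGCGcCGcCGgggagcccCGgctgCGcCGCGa
RAPGEF5: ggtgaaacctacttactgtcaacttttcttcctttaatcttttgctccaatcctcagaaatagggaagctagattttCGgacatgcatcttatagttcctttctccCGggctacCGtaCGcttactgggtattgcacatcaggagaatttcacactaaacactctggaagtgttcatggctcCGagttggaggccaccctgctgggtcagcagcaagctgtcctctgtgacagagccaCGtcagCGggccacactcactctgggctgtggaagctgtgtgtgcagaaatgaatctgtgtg
NPW: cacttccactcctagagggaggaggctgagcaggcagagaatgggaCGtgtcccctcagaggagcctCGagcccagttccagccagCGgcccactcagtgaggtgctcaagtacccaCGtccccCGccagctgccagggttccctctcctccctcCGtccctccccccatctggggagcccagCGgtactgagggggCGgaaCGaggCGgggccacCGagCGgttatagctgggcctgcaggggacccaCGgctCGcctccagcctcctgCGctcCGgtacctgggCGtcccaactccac
The PIEZO2 window held 38 CG dinucleotides, the NPW window 17 and the printed RAPGEF5 window 7, against a median of 14 over the 35114 windows of the table. The ratio of observed to expected CG, given the C and G content, was 0.866 for PIEZO2, 0.486 for NPW and 0.384 for RAPGEF5, with a median of 0.579 over all windows. Among the 7 windows of the 5 genes, 3 reached a ratio of 0.6, as did 48.9% of all windows. CG-rich and CG-poor starts were thus both present. The letters AGATAA, searched on both strands, were in 0 of the 7 windows and in 10.3% of all windows. The letters AATC, the core bound by GFI1 and GFI1B, were found on either strand in 4 of the 7 windows and in 69.0% of all windows. The 3′ reads of this assay do not show which start a cell used.

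Reads in genes numbered 4837096 to 10141155 per library, so 3 counts were worth 0.296 to 0.62 CPM (read counts scaled to library size) in a library. All 10 markers of myeloid and megakaryocyte-erythroid cells were tested. Their summed level was 2806 to 2999 CPM in insR GSK-LSD1, 2751 to 2914 CPM in insR DMSO, 3334 to 3738 CPM in WT GSK-LSD1 and 2428 to 2633 CPM in WT DMSO. In each list of 6 markers of another lineage, 1 or 2 had 0 reads in every library. Among these were MS4A1 for B cells, DCN for fibroblasts, KRT19 for epithelium, TEK for endothelium and STMN2 for neurons. Others were read. In insR DMSO against WT DMSO, CDH1 averaged 9.07 against 1.21 CPM and COL1A1 4.08 against 0.252 CPM, while KRT18 averaged 6.96 against 10.1 CPM. Summed over each list of 6, the lymphoid markers reached at most 12.9 CPM in any library and the fibroblast markers 6.76. The epithelial markers reached at most 19.7 CPM and the neuronal ones 14.5. The endothelial sum was higher, from 99.9 CPM in a WT DMSO library to 174 CPM in a WT GSK-LSD1 library. Most of it was ESAM, at a mean of 104 CPM in WT DMSO and 163 CPM in WT GSK-LSD1. KDM1A averaged 106 ± 4.56 CPM in insR GSK-LSD1, 109 ± 2.18 CPM in insR DMSO, 217 ± 3.01 CPM in WT GSK-LSD1 and 265 ± 26.5 CPM in WT DMSO (SD, n = 3 each). KDM1A was thus lower wherever the 10 genes were silent; its part in their silence was not tested, and gene counts do not show the insertion.

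In insR cells the 10 genes were all but unread, with and without the drug. Together they drew 16 of 17737832 gene reads in the 3 insR GSK-LSD1 libraries and 9 of 22088640 in the 3 insR DMSO libraries. The WT GSK-LSD1 libraries held 6178 such reads of 19948818, and the WT DMSO libraries 4596 of 18645281. No insR library was high: each held 1 to 9 reads over all 10 genes, against 1359 to 3080 in each WT library. Of the 30 values (10 genes in 3 libraries), 18 were 0 in insR GSK-LSD1 and 24 were 0 in insR DMSO. RAPGEF5 and GJA4 had 0 reads in all 6 insR libraries. In bulk RNA, fewer cells that express a gene and less RNA per cell cannot be told apart.

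**Figure D1:**
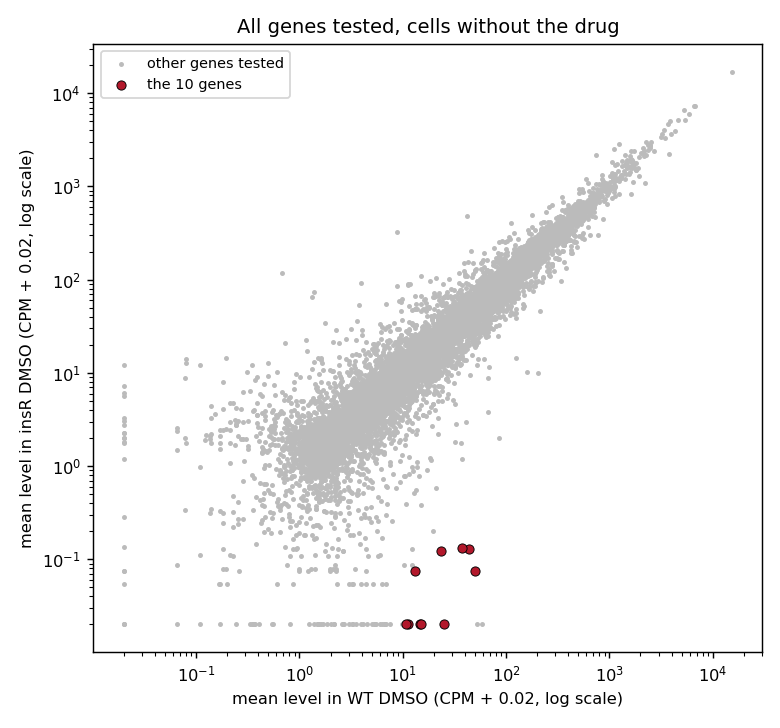
Mean level of each tested gene in insR DMSO (vertical axis, CPM + 0.02, log scale) against WT DMSO (horizontal axis, CPM + 0.02, log scale), with the 10 genes in red and the other tested genes in grey. The 10 genes lie along the lower edge, between 10.8 and 49.9 CPM in WT DMSO; that contrast chose them, so their place is a description.

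In insR DMSO against WT DMSO, the contrast behind the choice, all 10 genes were lower in every insR library than in any WT library. edgeR called 30.1% of all tested genes in that contrast, and the groups stood apart for 42.4%. Because the genes were chosen on it, nothing is read from their count there.

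The choice can be set beside all genes by a plain count. At the level of the lowest of the 10 genes, a mean of 10.8 CPM for GJA4, 8332 genes were expressed in WT DMSO and 14 of these had 0 to 3 reads over insR DMSO. The 10 genes are among the 14, and the other 4 were XIST, CBFA2T3, CDK14 and FOXL2. CBFA2T3, a corepressor gene of blood progenitors, was at 51.9 ± 6.02 CPM in WT DMSO with 0 reads in insR DMSO. Just outside the limit, ALOX5AP had 4 insR DMSO reads and 19.4 CPM in WT DMSO, PROX1 had 7 reads and 15.1 CPM, and TFAP2A had 10 reads and 12.8 CPM. In the other direction, 5 of 8322 genes at that level in insR DMSO had 0 to 3 reads in WT DMSO, named after their values were seen: CNTNAP4, MARCHF1, TRHDE, TRHDE-AS1 and 1 gene with no symbol in the tables used. Under the drug, 27 of 8504 genes at that level in WT GSK-LSD1 had 0 to 3 reads in insR GSK-LSD1, and 6 of 8320 the other way. Of the 10 genes, 6 were among the 27, because NPR3 had 4 insR reads and RAPGEF5, GJA4 and IRX1 were below that level in WT GSK-LSD1. In insR cells no gene at that level with the drug had 0 to 3 reads without it, nor the reverse.

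The 6 libraries given GSK-LSD1 were not used to choose the genes, but they come from the same insR and WT cells. In each of the 10 genes every insR GSK-LSD1 library lay below every WT GSK-LSD1 library, and edgeR called all 10 lower. Of all tested genes, 27.5% were called lower in this comparison and 27% higher, 54.5% in all, and the groups stood apart in either direction for 60.1%. Since the genes were chosen for few reads in insR cells and passed the filter through their WT level, nothing is read from these counts. They are a description of the same loss in treated cells.

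The size of the difference can be given from the read counts, with intervals that cover counting error only. Under GSK-LSD1 the scaled WT level of DLK1 was 1111 times that of insR (95% counting interval 199 to 43915), from 1 insR read. For PIEZO2 the WT level was 1016 times that of insR (95% counting interval 281 to 8393), from 2 insR reads. The intervals of these ratios are wide and overlap those of other genes, so the genes have no order by them. Ratios for PARD3, PTPRCAP, GAL, NPR3 and NPW ran from 144 to 284, from 1 to 4 insR reads each. For IRX1 the ratio was 49.6 (16.7 to 243), and its 3 insR reads came from 1 library. For the genes with 0 insR reads, WT levels were set against a limit of 3 counts over the group, with the WT counts taken as exact. On that footing WT levels were at least 27.0 times higher for RAPGEF5 and at least 4.02 times higher for GJA4. The GJA4 bound is small because WT cells given the drug held 14 GJA4 reads.

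In insR cells given GSK-LSD1 the 10 genes stayed at a few reads each. NPR3 had the most, with 4 reads over the 3 insR GSK-LSD1 libraries and 3 over the 3 insR DMSO libraries, so no fold is given. edgeR called 0 of 10 in insR GSK-LSD1 against insR DMSO, 0 had an unadjusted p below 0.05, and DESeq2 and limma-voom also called 0. Over all genes 0.505% were called in this comparison (0.241% higher and 0.264% lower), 65 genes, and 996 had an unadjusted p below 0.05. With 16 reads in insR GSK-LSD1 and 9 in insR DMSO over all 10 genes, and RAPGEF5 and GJA4 at 0 in both groups, a test could hardly make a call, and nothing is read from its 0 calls.

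Whether the drug changes these genes in WT cells has a mixed answer. In WT GSK-LSD1 against WT DMSO, 3 of 10 rose (PIEZO2, DLK1 and NPR3), 5 fell (GJA4, RAPGEF5, GAL, IRX1 and PARD3) and NPW and PTPRCAP did not pass the test. The background was wide: 22.7% of all tested genes were called higher and 22.5% lower, 45.2% in all. The median log2 fold change was -0.38 over the 10 genes and 0.01 over all tested genes. The treated and untreated WT groups did not overlap for 8 of the 10 genes, against 51.9% of all tested genes. This comparison shares the WT DMSO libraries, in which the genes were picked for a high level, with the choice of the genes.

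**Figure D2:**
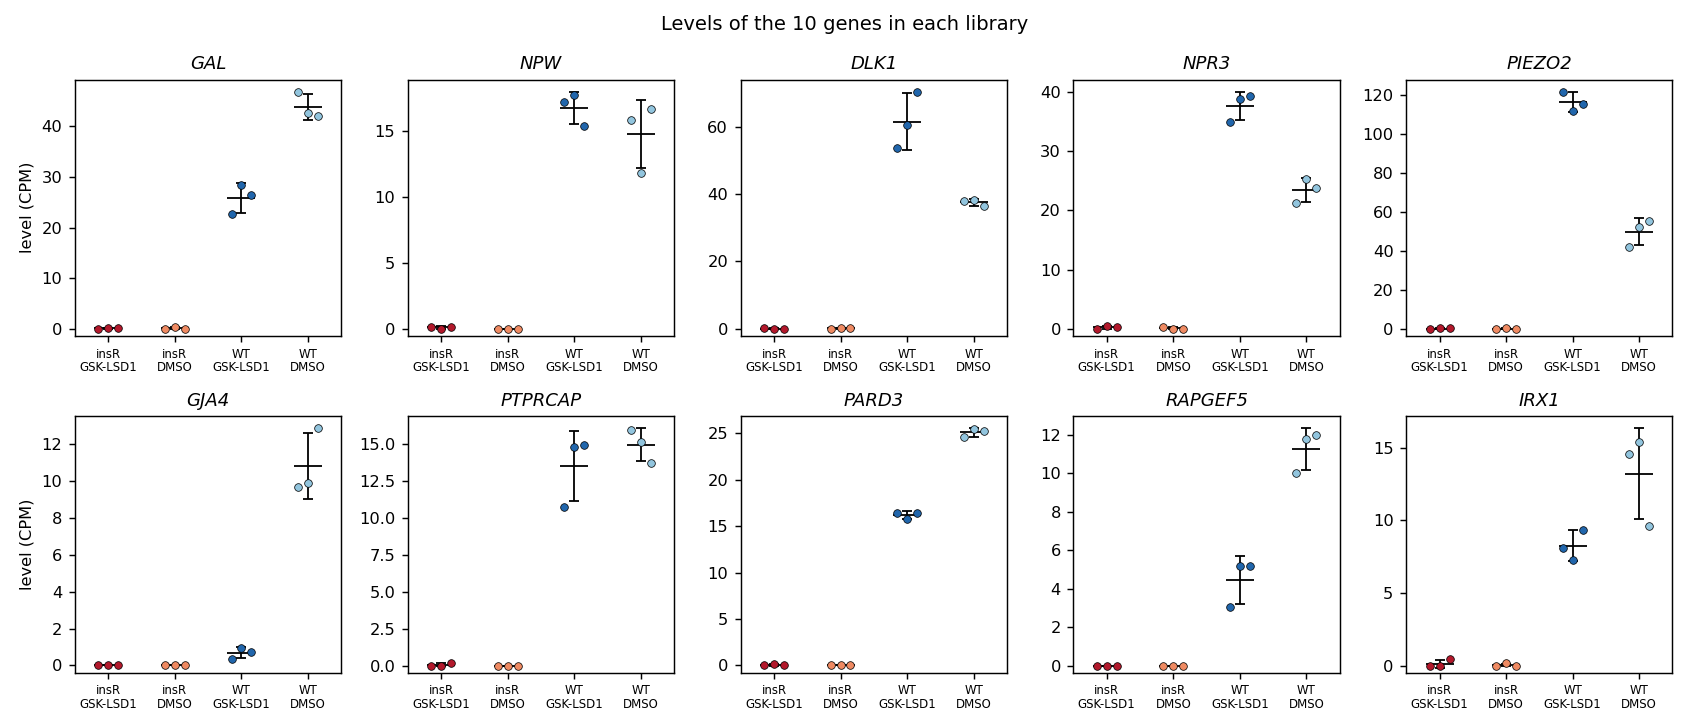
Level of each of the 10 genes (vertical axes, CPM, each panel on its own scale) in the 12 libraries, 1 point per library, in the order insR GSK-LSD1, insR DMSO, WT GSK-LSD1, WT DMSO; bars give the mean and SD of 3 libraries. All insR points lie at or near 0, while the WT points of PIEZO2, DLK1 and NPR3 are higher under the drug and those of GJA4, RAPGEF5, GAL, PARD3 and IRX1 lower.

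The 3 ligand genes differed. GAL encodes the neuropeptide galanin. It was at 22.7, 28.4 and 26.4 CPM in WT GSK-LSD1, against 46.9, 42.7 and 41.98 CPM in WT DMSO. All 3 treated WT libraries lay below all untreated ones. The log2 fold change was -0.76, SE 0.15, edgeR adjusted p = 0.000239. In insR cells GAL had 2 reads under the drug and 2 in DMSO.

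NPW encodes neuropeptide W, a ligand of G protein-coupled receptors. It was at 17.2, 17.7 and 15.4 CPM in WT GSK-LSD1 and 15.8, 11.8 and 16.6 CPM in WT DMSO. The WT groups overlapped, and the log2 fold change of 0.19 (SE 0.19) had an edgeR adjusted p = 0.454. In insR cells it had 2 reads under the drug and 0 in DMSO.

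DLK1 encodes a transmembrane and shed protein of the Notch ligand family that lacks the usual receptor-binding domain, and it is an imprinted gene. It was at 53.7, 60.5 and 70.5 CPM in WT GSK-LSD1, against 37.9, 38.2 and 36.4 CPM in WT DMSO. Untreated libraries sat within a narrow range and treated ones were spread wider above it. The log2 fold change was 0.72, SE 0.13, edgeR adjusted p = 8.82e-05. In insR cells it had 1 read under the drug and 2 in DMSO.

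The membrane proteins held both the largest rise and the largest fall. PIEZO2 encodes a mechanically gated cation channel best known from sensory neurons. It was at 122, 112 and 115 CPM in WT GSK-LSD1, against 41.96, 52.3 and 55.4 CPM in WT DMSO. Means were 116 ± 5.17 CPM in WT GSK-LSD1 and 49.9 ± 7.02 CPM in WT DMSO (SD, n = 3 each), a ratio of 2.33, and the groups stood well apart. The log2 fold change was 1.22, SE 0.12, edgeR adjusted p = 8.07e-09. PIEZO2 was thus highest in treated WT cells while insR cells given the same dose held 2 reads of it, and insR cells in DMSO 1 read.

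NPR3 encodes the natriuretic peptide clearance receptor, a cell-surface protein that binds these hormones and takes them up. It was at 34.98, 38.8 and 39.3 CPM in WT GSK-LSD1, against 21.2, 25.3 and 23.8 CPM in WT DMSO. The groups did not overlap and the log2 fold change was 0.68, SE 0.16, edgeR adjusted p = 0.00131. It kept the most insR reads of the 10 genes, with 4 under the drug from 2 libraries and 3 in DMSO from 1 library.

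GJA4 encodes connexin 37, a gap junction protein of endothelium. It was at 0.378, 0.960 and 0.713 CPM in WT GSK-LSD1, against 9.66, 9.91 and 12.9 CPM in WT DMSO, and the highest treated library was far below the lowest untreated one. The log2 fold change was -3.93, SE 0.38, edgeR adjusted p = 5.08e-08. Of the 10 genes it was the only one that the drug brought below 1 CPM in WT cells, a level 15.3 times lower than in WT DMSO by the fitted fold. The summed level of 6 endothelial markers, mostly ESAM, was 141 to 154 CPM in insR GSK-LSD1, 134 to 149 in insR DMSO, 159 to 174 in WT GSK-LSD1 and 99.9 to 110 in WT DMSO. Of the 6, TEK was at 0 reads throughout. In the same order of groups CDH5 averaged 3.55, 4.70, 0.781 and 0.207 CPM, and KDR 0.588, 0.510, 1.95 and 0.194 CPM.

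PTPRCAP encodes a small membrane protein that associates with the phosphatase CD45 in lymphocytes. It was at 10.8, 14.8 and 14.97 CPM in WT GSK-LSD1 and 15.98, 15.1 and 13.8 CPM in WT DMSO. The groups overlapped and the log2 fold change of -0.14 (SE 0.20) had an edgeR adjusted p = 0.607. It overlaps CORO1B on the same strand, so its reads are uncertain where the transcripts share sequence. CORO1B had 339 reads in insR DMSO and 404 in WT DMSO, while PTPRCAP had 0 reads in insR DMSO and 281 in WT DMSO. In insR GSK-LSD1 it had 1 read.

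Both intracellular genes fell. PARD3 encodes a scaffold of the PAR complex, which sets up cell polarity with PARD6 and atypical protein kinase C. It was at 16.4, 15.7 and 16.4 CPM in WT GSK-LSD1, against 24.6, 25.5 and 25.2 CPM in WT DMSO. The 3 libraries of each group were close together, and the log2 fold change was -0.63, SE 0.17, edgeR adjusted p = 0.00397. In insR cells it had 1 read under the drug and 0 in DMSO.

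RAPGEF5 encodes a guanine nucleotide exchange factor of the RAP small GTPases. It was at 3.03, 5.18 and 5.19 CPM in WT GSK-LSD1, against 10.01, 11.8 and 11.97 CPM in WT DMSO. Every treated library was below every untreated one, and the log2 fold change was -1.31, SE 0.26, edgeR adjusted p = 0.000402. That made it the second largest fall among the 10 genes, 2.47 times lower by the fitted fold.

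IRX1 encodes a homeodomain transcription factor of the Iroquois family, which patterns the embryo. It was at 8.13, 7.30 and 9.37 CPM in WT GSK-LSD1, against 14.6, 15.4 and 9.65 CPM in WT DMSO. The groups did not overlap, but the lowest untreated library, replicate 3, was close to the highest treated one. The log2 fold change was -0.67, SE 0.25, edgeR adjusted p = 0.0356. In insR cells it had 3 reads under the drug and 1 in DMSO. This call was lost in 7 of 21 alternatives, among them fits without WT DMSO replicate 1 (adjusted p = 0.102), WT DMSO replicate 2 (0.16), WT GSK-LSD1 replicate 1 (0.0663) or WT GSK-LSD1 replicate 2 (0.0946). With the replicate number as a block its adjusted p was 0.0526, and the range over all alternatives was 0.00996 to 0.16.

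**Figure D3:**
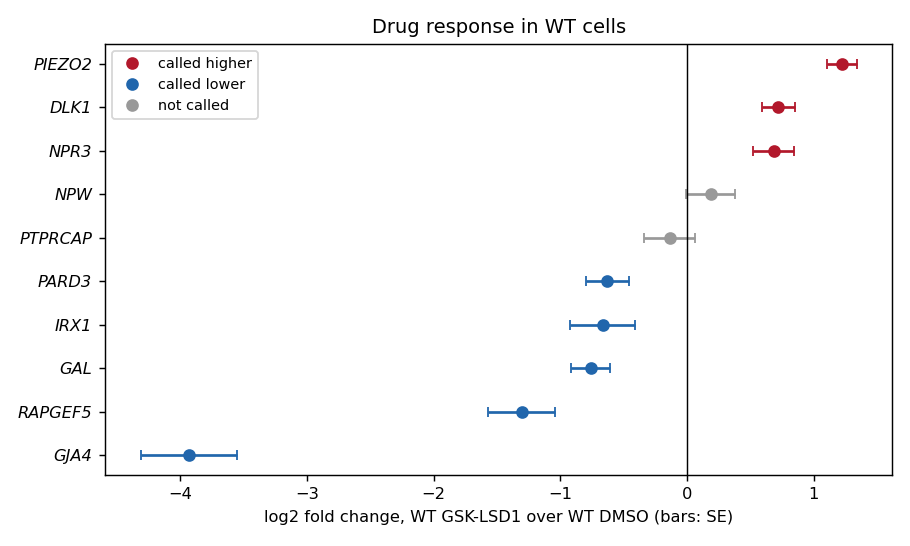
log2 fold change of each of the 10 genes in WT GSK-LSD1 over WT DMSO (horizontal axis; bars give the SE), ordered from the largest rise at the top, with called rises in red, called falls in blue and genes not called in grey. PIEZO2 is at 1.22 and GJA4 at -3.93, and the other called genes lie between -1.31 and 0.72.

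The order of the WT response was PIEZO2, DLK1, NPR3, NPW, PTPRCAP, PARD3, IRX1, GAL, RAPGEF5 and GJA4, from the largest rise to the largest fall. DLK1 and NPR3, at 0.72 and 0.68, differed by less than their SEs of 0.13 and 0.16. PARD3, IRX1 and GAL, at -0.63, -0.67 and -0.76, likewise differed by less than their SEs, the smallest of which was 0.15. By level in CPM, which in this assay counts 3′ ends and not transcript length, the WT DMSO order was PIEZO2, GAL, DLK1, PARD3, NPR3, PTPRCAP, NPW, IRX1, RAPGEF5 and GJA4. The libraries of neighbours in this order overlapped, except between GAL and DLK1, between DLK1 and PARD3 and between NPR3 and PTPRCAP.

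Genes related to the 10 by family or pathway moved in both directions. From a list of 76 such genes 41 passed the filter. In insR DMSO against WT DMSO 7 were higher and 6 lower, with a median log2 fold change of -0.0013, where 14.5% and 15.6% of all tested genes were called higher and lower. In WT GSK-LSD1 against WT DMSO 13 were higher and 5 lower, with a median of 0.18, where 22.7% and 22.5% of all tested genes were called higher and lower. In insR GSK-LSD1 against insR DMSO edgeR called 0 of 41, where 0.505% of all tested genes were called. In insR GSK-LSD1 against WT GSK-LSD1 10 were higher and 15 lower, where 27% and 27.5% of all tested genes were called higher and lower.

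The DLK1 list held a gene that was read in every insR library. MEG3, a long non-coding RNA of the same imprinted domain that is expressed from the other parental allele, was at 41.6, 48.95 and 50.02 CPM in insR GSK-LSD1 and 50.6, 44.7 and 59.6 CPM in insR DMSO. It was at 109, 111 and 106 CPM in WT GSK-LSD1 and 49.9, 44.1 and 61.4 CPM in WT DMSO. Without the drug the genotypes overlapped (log2 fold change -0.0013, edgeR adjusted p = 0.995), while DLK1 had 2 insR reads and 705 WT reads. In WT cells MEG3 rose with the drug, as DLK1 did (log2 fold change 1.08, SE 0.12, edgeR adjusted p = 6.31e-08). Of 8 tested Notch genes, MEG3 counted among them, 4 rose in WT cells and 0 fell, where 22.7% and 22.5% of all tested genes did. NOTCH1, a Notch receptor, rose by 1.02 (adjusted p = 2.3e-06), DLL3, a ligand, by 0.98 (0.000989) and HEY1, a Notch target, by 1.64 (0.00743), the last lost without WT GSK-LSD1 replicate 3 (adjusted p = 0.0523). In DMSO the Notch target HES1 was higher in insR than in WT by 1.34 (edgeR adjusted p = 0.0017).

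Of the Iroquois genes, IRX3 stood out with IRX1. IRX3 had 0 reads in all 6 insR libraries. It was at 13.2, 10.4 and 8.45 CPM in WT GSK-LSD1 and 7.90, 6.43 and 6.25 CPM in WT DMSO. WT levels were at least 59.4 times higher than insR levels under the drug and at least 49.1 times higher in DMSO. These bounds are against 3 counts over the group, with the WT counts taken as exact. Its WT DMSO level was below that of GJA4, the lowest of the 10 genes. Its rise in WT cells (edgeR adjusted p = 0.0493) was lost in 11 of 20 alternatives. IRX5 was read in both genotypes, with 34 reads in insR GSK-LSD1, 51 in insR DMSO, 41 in WT GSK-LSD1 and 39 in WT DMSO. It was not called between genotypes in DMSO (log2 fold change 0.23, edgeR adjusted p = 0.685). IRX2, IRX4 and IRX6 had 0 reads in every library.

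**Figure D4:**
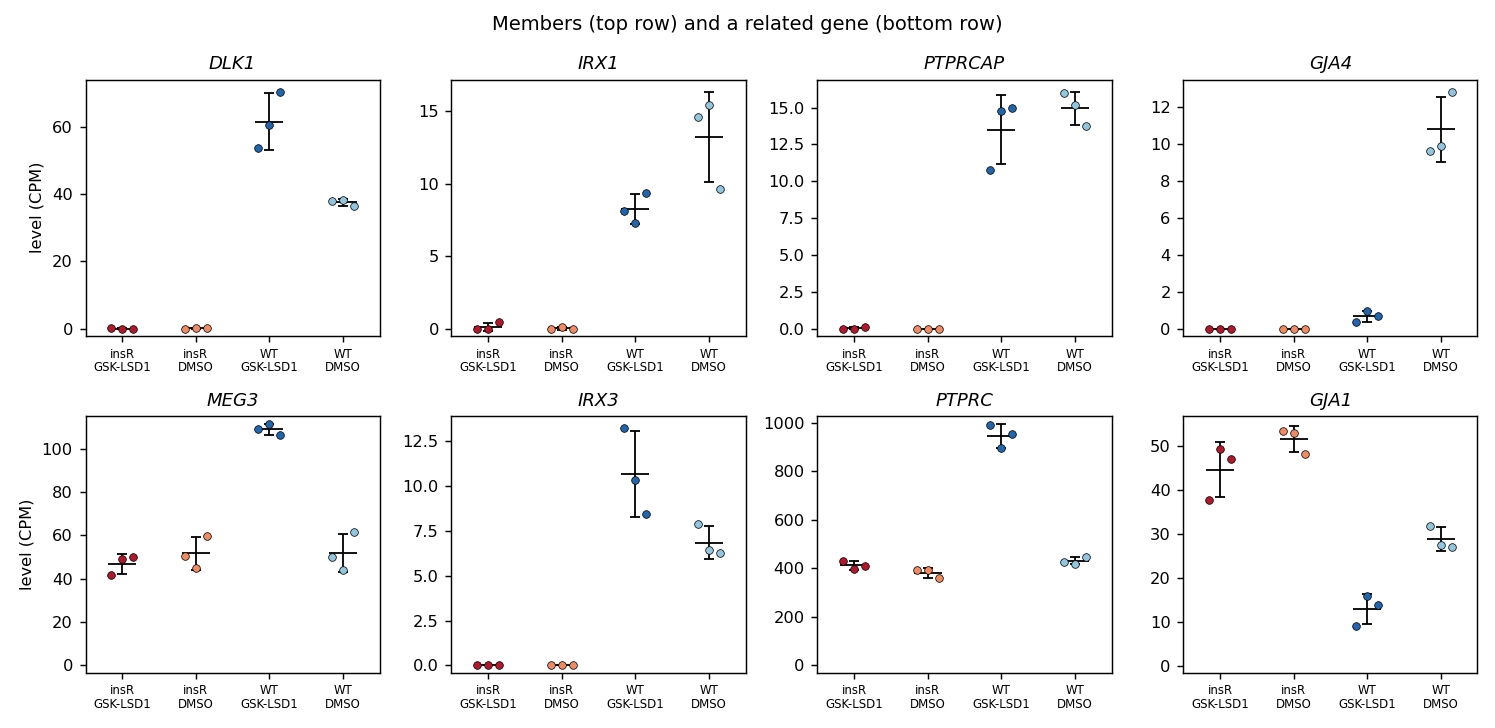
Level (vertical axes, CPM, each panel on its own scale) of DLK1, IRX1, PTPRCAP and GJA4 in the top row and of a related gene below each, MEG3, IRX3, PTPRC and GJA1, with 1 point per library in the order insR GSK-LSD1, insR DMSO, WT GSK-LSD1, WT DMSO and bars for the mean and SD of 3 libraries. IRX3 is at 0 in all insR libraries, whereas MEG3, PTPRC and GJA1 are read in every library.

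PTPRC, which encodes CD45, the phosphatase that PTPRCAP binds, averaged 411 ± 18.5 CPM in insR GSK-LSD1, 382 ± 19.8 in insR DMSO, 945 ± 48.2 in WT GSK-LSD1 and 431 ± 14.3 in WT DMSO (SD, n = 3 each). It rose in WT cells under the drug (log2 fold change 1.13, SE 0.07, edgeR adjusted p = 1.07e-11), and in DMSO the difference of insR from WT was -0.17 (adjusted p = 0.0785). Among 4 tested connexins, GJA1, which encodes connexin 43, moved as GJA4 did under the drug in WT cells (log2 fold change -1.15, SE 0.16, edgeR adjusted p = 2.3e-06). In DMSO it differed from GJA4, being higher in insR than in WT by 0.84 (edgeR adjusted p = 3.33e-05).

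Of 10 polarity genes listed for PARD3, all tested, 2 rose and 0 fell in WT cells, where 22.7% and 22.5% of all tested genes did. In DMSO 3 were higher and 3 lower in insR, where 14.5% and 15.6% of all tested genes were. PARD3B, the paralog of PARD3, averaged 32.98 ± 4.53 CPM in insR DMSO and 22.5 ± 1.99 CPM in WT DMSO (log2 fold change 0.55, SE 0.13, edgeR adjusted p = 0.00241). TIAM1, an exchange factor of RAC1 that binds PARD3, was also higher in insR DMSO, by 0.76 (edgeR adjusted p = 1.28e-07). PRKCZ, an atypical protein kinase C, had a log2 fold change of -1.45 (adjusted p = 0.00143) and PARD6G, a PAR6 subunit, at -1.89 (0.00418), both lower in insR. Under the drug PARD3B rose in WT cells by 0.70 (adjusted p = 0.000133) and TIAM1 by 0.56 (9.36e-06), where PARD3 fell.

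Among 12 RAPGEF and RAP genes, all tested, 3 rose and 4 fell in WT cells, against the same shares of 22.7% and 22.5% of all tested genes. In DMSO 2 were higher and 1 lower in insR, against 14.5% and 15.6%. RAPGEF1, another RAP exchange factor, rose in WT cells by 0.91 (edgeR adjusted p = 2.05e-06), and in DMSO was at -0.60 in insR over WT (0.00122). RAP1A, a substrate of these factors, fell in WT cells (log2 fold change -0.62, adjusted p = 3.94e-05).

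For the ligand and receptor genes most listed partners were too scarce to test. None of the 7 genes listed for galanin and neuropeptide W passed the filter, and the galanin receptor GALR2 had 10 reads in insR GSK-LSD1, 1 in insR DMSO, 24 in WT GSK-LSD1 and 18 in WT DMSO. NPPA and NPPB, which encode hormones that NPR3 clears, had 0 reads in every library. NPPC, which encodes another such hormone and was the only gene of its list to be tested, was lower in insR DMSO than in WT DMSO (log2 fold change -1.69, SE 0.55, edgeR adjusted p = 0.0214), a call lost without WT DMSO replicate 1, insR DMSO replicate 2 or insR DMSO replicate 3 (adjusted p up to 0.133). PIEZO1, the other channel of the PIEZO family, averaged 64.7 ± 3.80 CPM in insR GSK-LSD1, 61.6 ± 2.97 in insR DMSO, 50.97 ± 11.3 in WT GSK-LSD1 and 57.9 ± 6.37 in WT DMSO (SD, n = 3 each). Under the drug it was higher in insR than in WT (log2 fold change 0.34, SE 0.13, edgeR adjusted p = 0.026), and it was not called between genotypes in DMSO or in either drug response.

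Neighbouring genes were, with 1 exception, still read more than 3 times in insR cells. For each of the 10 genes, the 5 nearest tested protein-coding genes on either side were taken by gene start, 100 neighbours in all. CORO1B, which overlaps PTPRCAP, was not among them. It had 339 reads in insR DMSO and 404 in WT DMSO. In insR DMSO against WT DMSO 9 were higher and 16 lower, where 14.5% and 15.6% of all tested genes were called higher and lower. The median log2 fold change of the neighbours was -0.04. The exception, with 0 to 3 insR DMSO reads, was TWIST1, a basic helix-loop-helix transcription factor gene. It was the farthest of the 5 neighbours taken before RAPGEF5.

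Of the 20 nearest neighbours, 1 was higher, 5 lower and 14 not called, the last group with log2 fold changes between -0.20 and 1.13. Of all tested genes, 14.5% were called higher and 15.6% lower in this contrast. Genes described as nearest or next to a member are so among tested protein-coding genes only. CDCA7L, next to RAPGEF5, was at 2.93 CPM on average in insR DMSO and 40.9 CPM in WT DMSO (log2 fold change -3.80, SE 0.19, edgeR adjusted p = 1.5e-13). Between CDCA7L and TWIST1, named after their values were seen, SP4 (-0.16) and POLR1F (-0.01) were not called. MACC1, also between them, was higher by 0.34 (edgeR adjusted p = 0.0468), a call lost in 16 of 20 alternatives. TWIST1, the farthest neighbour taken on that side, had 1 read in insR DMSO and 118 in WT DMSO. The scaled ratio of WT to insR was 136 (95% counting interval 23.9 to 5410). Under the drug TWIST1 had 0 reads in insR and 247 in WT. The WT level was at least 70.9 times higher, against 3 counts over the group and with the WT count taken as exact. TOMM7, the nearest tested gene on the other side of RAPGEF5, was at 0.06 and not called. NHERF2, next to NPW, was at -1.66 (edgeR adjusted p = 2.72e-06) and ZNF598, on its other side, at -0.09. TARS1, next to NPR3, was at -0.25, a call (edgeR adjusted p = 0.0136) lost without insR DMSO replicate 3 (adjusted p = 0.0773). TESMIN, next to GAL, was higher in insR by 0.75 (adjusted p = 0.00793). The nearest neighbours taken for PIEZO2, DLK1, PTPRCAP, IRX1 and GJA4 were not called. For DLK1 and PTPRCAP edgeR called 0 of the 10 neighbours taken for each, which leave out CORO1B at PTPRCAP.

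Around PARD3, 6 of 10 neighbours were lower in insR DMSO and 2 higher. ITGB1, a beta-1 integrin and the nearest tested gene before PARD3, had a log2 fold change of -0.67 (edgeR adjusted p = 3.25e-07). CUL2, a cullin scaffold and the nearest tested gene after PARD3, was at -1.01 (edgeR adjusted p = 5.57e-06). Farther genes of the locus, picked out after their values were seen, were ARHGAP12 at -2.46, EPC1 at -1.48, KIF5B at -1.04 and CCNY at -0.84, and ZNF248 and ZNF25 were higher by 0.66 and 1.59. KIF5B, a kinesin heavy chain gene, was at 199, 206 and 213 CPM in insR DMSO, against 413, 422 and 433 CPM in WT DMSO. These 8 calls held under all 20 alternatives tried for each gene. Without the PARD3 locus 10 of 90 neighbours, 11.1%, were lower and 7 higher.

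**Figure D5:**
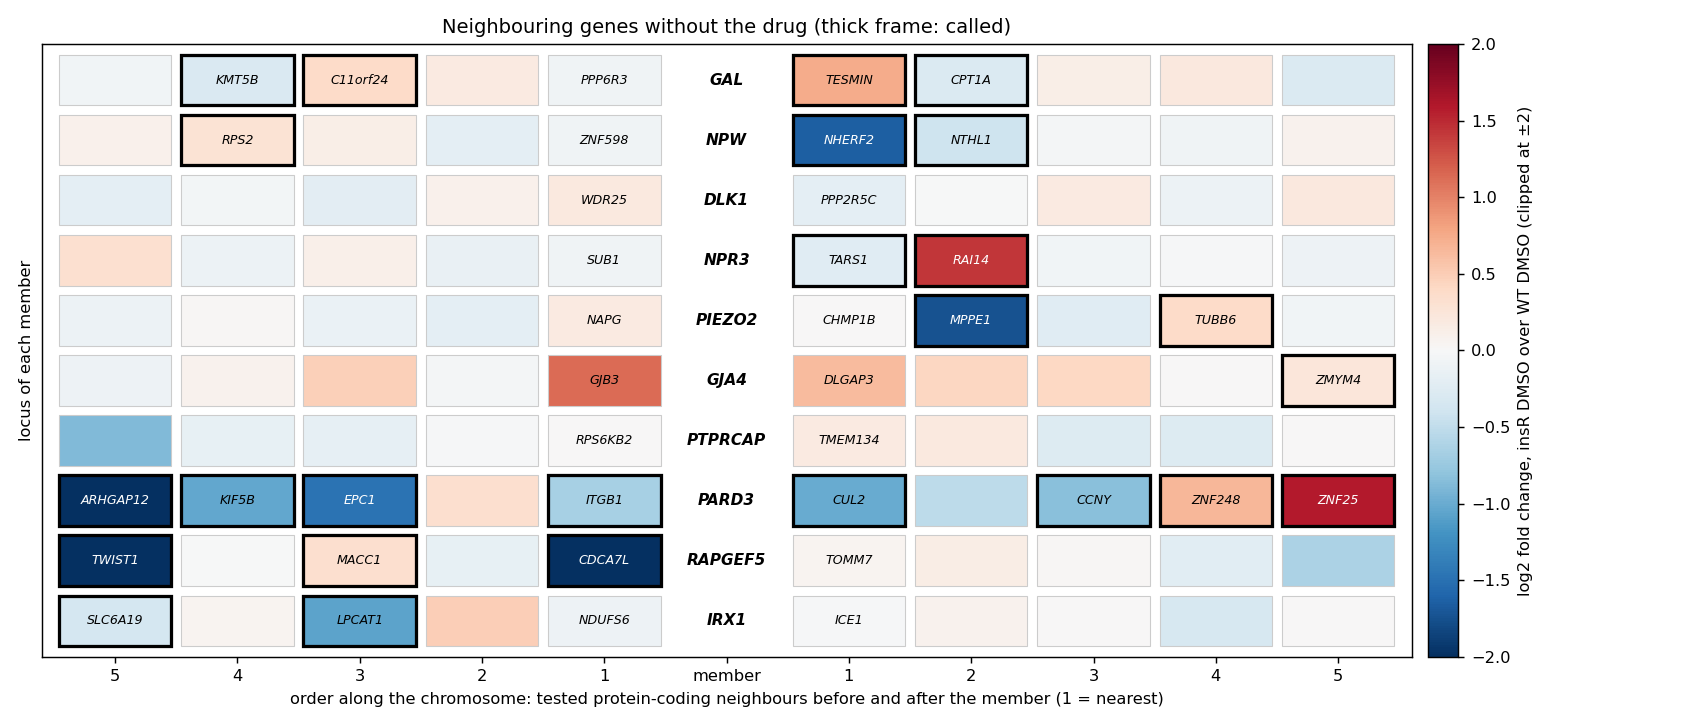
The 5 nearest tested protein-coding genes before and after each of the 10 genes (1 row per gene, boxes in chromosome order, distances not to scale), coloured by log2 fold change in insR DMSO over WT DMSO and clipped at ±2, with a thick frame where edgeR called the neighbour and names for called and nearest neighbours. The row of PARD3 has 8 framed boxes, 6 of them lower, and those of DLK1 and PTPRCAP have 0. CORO1B, which overlaps PTPRCAP, is not shown.

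The genes whose pattern over the 12 libraries was most like the mean of the 10 were found by Pearson correlation of log2(CPM + 0.5). The 10 protein-coding genes with the highest values, from 0.993 to 0.997, were CBFA2T3, KIF5B, DIAPH2, HOXD13, PMEPA1, KIF13A, HMGA2, VOPP1, DEK and PLS3. The 12 points fall into 2 genotypes, so the values are a description of genes lower in insR and have no p. CBFA2T3, DIAPH2 and PMEPA1 had 0 reads in insR DMSO, HMGA2 had 1 and HOXD13 had 2. KIF5B, from the PARD3 locus, was high in likeness but well read, at 206 ± 6.93 CPM in insR DMSO and 423 ± 10.2 CPM in WT DMSO. DEK, a chromatin protein gene, was at 446 ± 13.4 CPM in insR DMSO and 861 ± 34.8 CPM in WT DMSO (SD, n = 3 each). High likeness was thus found both with and without silence in insR cells.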

How the data were processed

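RNA was measured in 12 libraries of 4 groups of 3, grouped by the sample titles. Per the labels' protocols, the libraries are 3′ end libraries of polyadenylated RNA (QuantSeq, forward). The submitters' processing notes name bcl2fastq 2.2, STAR 2.6.0c, HTSeq 0.9.1, DESeq2 and hg19. Annotation release and strand setting: not given in the sources used here. The deposited counts are whole reads per Ensembl gene with no normalization. Entries that name no gene were left out of library sizes; reads outside genes were 13.7% to 19.5% and ambiguous reads 1.68% to 1.86% of uniquely aligned reads, and alignments that were not unique were 57.9% to 62.6% of each table's total. The deposited normalized table was not used.

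Genes were tested in R 4.3.3 with edgeR 4.0.16 (robust quasi-likelihood fit to the 12 libraries together, TMM, filterByExpr), with Benjamini-Hochberg adjustment over 12864 genes and calls below 0.05. CPM uses TMM-scaled library sizes. The genes and lists were chosen with earlier results of these data known. Members, KDM1A, up to 4 called related genes per family, nearest neighbours, genes near the read limit and the 10 of greatest likeness were named. Symbols come from a reference list of gene names matched by Ensembl id. Gene order comes from GENCODE v29, on a later build than hg19, so only chromosomes, neighbours, overlaps and gene types were used from it. Promoters come from RefSeq on GRCh38.p14. Replicates differed by more than counting noise (chi-square per degree of freedom 2.74 to 7.14). The fits were tested on simulated counts. Some items that the rule names are left out of the text. Alternatives were other scalings, filters, DESeq2 1.42.0, limma-voom (limma 3.58.1), a stricter threshold, a replicate block, fits on just the pair of groups compared and leaving out single libraries. Python 3.11.15, pandas 2.3.3, numpy 2.4.6, scipy 1.17.1 and matplotlib 3.10.9 were used.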

Additional observations from a re-analysis of the deposited data

How the results depend on the processing

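No count and no value followed here changed direction under any alternative. In WT cells 7 or 8 of the 10 genes were called, always with 3 higher, and the call that came and went was IRX1's. Under the drug 9 or 10 were called lower in insR; in the fit on only the 2 groups compared GJA4 did not pass the filter. The count in insR cells was 0 throughout, where reads were too few for a call. Of the 100 neighbours 25 were called; 15 of 60 were called with 3 on each side (4 higher) and 49 of 195 with 10 (17 higher and 32 lower), since fewer or more genes were counted. Over all genes the insR response had 65 calls, or 118 with no filter beyond 1 count, 25 at an adjusted p below 0.01 and 28 to 91 with each library left out (28 without insR GSK-LSD1 replicate 1 or 2, 29 without insR DMSO replicate 1). Leaving out each library gave 20 to 26 called neighbours, 15 to 18 related genes in the WT response and 9 to 14 in insR against WT in DMSO.

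Replicate numbers did not pair the libraries, with correlations of same-numbered deviations from -0.169 to 0.178. With the replicate block 7 of the 10 genes were called in WT cells (4 lower), 10 in insR against WT under the drug and 0 in insR cells. The block gave 24 neighbours (16 lower, 8 higher), and 18 and 13 related genes. Over all genes it gave 5818, 60, 6994 and 3897 calls for the WT response, the insR response and insR against WT under the drug and in DMSO.

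Values with few reads are limited by depth: a ratio that rests on 1 to 4 insR reads is known only within its wide counting interval, and 0 reads in a group allow up to 3 counts. The share of insR cells that express a gene cannot be read from bulk RNA.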
